A study of Rattus norvegicus with 9 samples.

Results

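The mitochondrial ribosomal protein genes were followed in rat primitive extraembryonic endoderm (pXEN) cells grown in 3 media. Members were the genes whose symbol starts with Mrpl or Mrps and a number, with at least 10 counts on the gene's own strand in at least 3 of the 9 libraries. Of the 17315 genes in the tables, 69 symbols matched and 66 passed the count minimum, 38 of them named for the large subunit (Mrpl) and 28 for the small subunit (Mrps). Mrpl36 and Mrpl53 had 0 counts in all 9 libraries and Mrpl30 reached 10 counts in 1 library, with counts of 0, 2 and 4 in T, 0, 0 and 0 in LPE, and 13, 7 and 0 in CPE. Just inside the minimum was Mrps12, with counts of 11, 3 and 7 in T, 1, 20 and 0 in LPE, and 0, 8 and 27 in CPE.

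Mitochondria carry their own ribosomes, which translate the few respiratory chain subunits still encoded in mitochondrial DNA. The ribosomal RNA comes from the mitochondrial genome, but every protein of the particle is encoded in the nucleus, made in the cytosol and imported. Some of these proteins have counterparts in bacterial ribosomes, and others were added in the mitochondrial lineage and cover surfaces that are RNA in bacteria.

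All libraries came from the pXEN line RX1 of WKY rats, with 3 libraries per medium, so the comparisons are within 1 line. T cells grew on fibronectin (100 ng/ml) in DMEM/MCDB with LA-BSA, ITS, ascorbic acid, β-mercaptoethanol, 2% fetal bovine serum and 0.5 µM dexamethasone, plus Lif, Pdgf and Egf at 10 ng/ml each. LPE cells grew without serum or dexamethasone on collagen I (10 µg/ml), in DMEM/F12 and Neurobasal with the N2 and B27 supplements and β-mercaptoethanol, plus Lif, Pdgf and Egf at 10 ng/ml each. CPE differed from LPE in that Chir99021 (1 µM), an inhibitor of the kinase Gsk3, took the place of Lif. T therefore differs from both other media in coating, base medium, supplements, serum and dexamethasone at once. From CPE it also differs in Lif and Chir99021. The parts of these differences cannot be told apart. Whether a medium's libraries were grown as separate cultures is not in the labels, and the spread that the p-values rest on may therefore be technical.

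Gene counts totalled 1698764 to 2161228 per library in T, 3119049 to 3233526 in LPE and 3127352 to 4418465 in CPE. Shares of multimapping reads were 64.9% to 67.6% in T, 54.3% to 59.9% in LPE and 51.7% to 58.2% in CPE. All 9 endoderm markers, such as Gata6 and Sox17, were detected in each medium. They summed to 8527 to 9159 CPM (counts scaled to a common library total) in T, 16211 to 18239 CPM in LPE and 9324 to 11134 CPM in CPE. Lama1 held much of the sum, with means of 2780 CPM in T, 9735 CPM in LPE and 4623 CPM in CPE. Single markers moved both ways against T at an edgeR adjusted p under 0.05. In LPE 4 were higher and 1 (Pdgfra) lower, and in CPE 4 were higher and 3 (Sox17, Pdgfra and Dab2) lower. Of the 7 fibroblast markers, Col1a2, Dcn, Lum and Postn were at 0 throughout, and the list summed to 1.39 to 32.4 CPM in T, 0 CPM in LPE and 0 to 6.44 CPM in CPE. The epiblast list (5 genes, with Nanog, Sox2, Fgf5 and Otx2 at 0) summed to at most 2.18 CPM in any library. The trophoblast list (5 genes, with Hand1 and Gata3 at 0) summed to 0.930 to 2.73 CPM in T, 0 to 3.11 CPM in LPE and 12.04 to 28.99 CPM in CPE. The endothelial and blood list (6 genes, with Ptprc, Hbb and Cd34 at 0) summed to 22.9 to 33.0 CPM in T, 65.4 to 96.0 CPM in LPE and 17.0 to 22.7 CPM in CPE.

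Transcripts of the mitochondrial ribosome made up a smaller share of gene counts in both serum-free media than in T. The 38 large subunit genes summed to 3551, 3219 and 3529 CPM in T, between 2271 and 2292 CPM in LPE, and between 2311 and 2321 CPM in CPE, with library totals adjusted by the TMM method. The summed level was 33.5% lower in LPE and 32.5% lower in CPE than in T, and no library of either serum-free medium reached the lowest T library. The 28 small subunit genes summed to 1859, 1758 and 1795 CPM in T, 1373, 1471 and 1408 CPM in LPE, and 1291, 1403 and 1416 CPM in CPE. Their summed level was 21.4% lower in LPE and 24.0% lower in CPE, again with no overlap with T. The small-to-large ratio of summed levels was 0.526 ± 0.0187 in T, 0.621 ± 0.0207 in LPE and 0.592 ± 0.0287 in CPE (SD, n = 3 libraries each). This ratio was higher in every serum-free library than in every T library. It follows the symbols, so its small side includes Mrps18a and Mrps30, which belong to the large subunit in the mammalian particle, and Mrps36. It also includes Mrps18b, at a mean of 44.1 CPM in T, 120 CPM in LPE and 127 CPM in CPE. A ratio by structure or without Mrps18b was not computed, so a shift between the subunits is not shown. LPE and CPE themselves differed by 0.362% in the sum over all 66 genes, which was 3700 ± 55.9 CPM in LPE and 3686 ± 73.7 CPM in CPE (SD, n = 3). In these bulk samples fewer cells of a type and less RNA per cell cannot be told apart. T also had the smaller libraries and the larger share of multimapping reads. After all libraries were thinned to 1698764 counts, edgeR called 22 members lower in LPE and 21 lower in CPE. Thinning evens out the totals and does not remove copies of the same molecule. The part of the multimapping share, or of the difference in genes detected, in the lower sums was not tested.

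**Figure D1:**
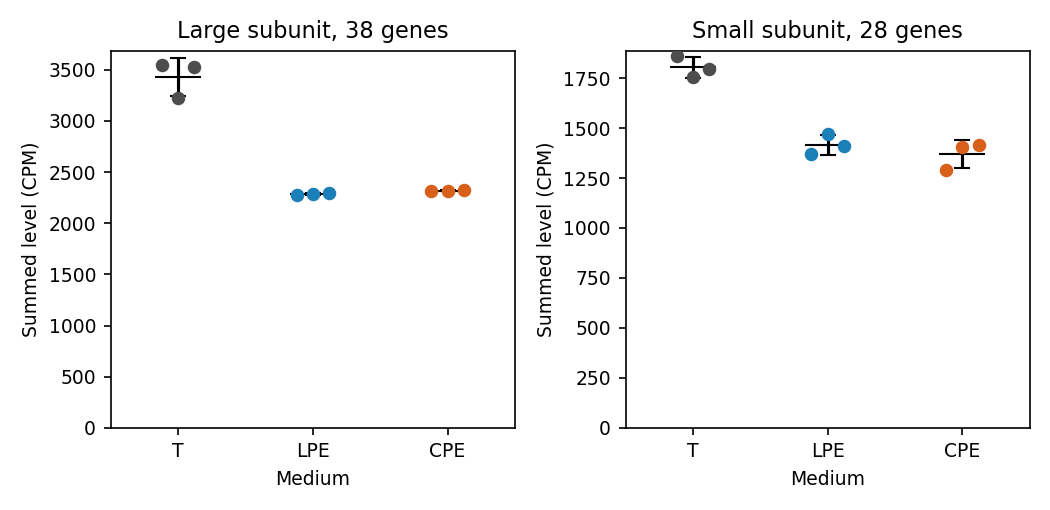
Summed level in CPM of the large subunit genes (left) and small subunit genes (right) for each library (points), with the mean and SD of each medium (bars). Both axes start at 0, and all 3 T libraries lie above all 6 serum-free libraries in each panel.

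Gene by gene, more members fell than rose in LPE against T. Across all 9130 genes tested with edgeR's quasi-likelihood test, 15.0% were called higher and 14.7% lower at an adjusted p under 0.05. Of the 66 members, 3 were higher, 26 were lower and 37 did not pass, which is 4.55% and 39.4%. The median log2 fold change of the members was -0.59, beside -0.03 over all genes tested. By symbol, 14 of 38 large subunit genes and 12 of 28 small subunit genes were lower. Both structural classes took part in LPE, with 8 of 23 large subunit proteins that have a bacterial counterpart lower, 6 of 17 mitochondria-specific large subunit proteins lower, and 6 of 15 and 6 of 11 in the corresponding small subunit classes. These classes follow the structure of the mammalian particle, in which the proteins named Mrps30 and Mrps18a belong to the large subunit. Mrps36, now known as Kgd4, a subunit of the oxoglutarate dehydrogenase complex, is still counted among the 11 mitochondria-specific small subunit genes. Without Mrps36 the small subunit by structure held 25 tested genes, of which 11 (44%) were lower in LPE.

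**Figure D2:**
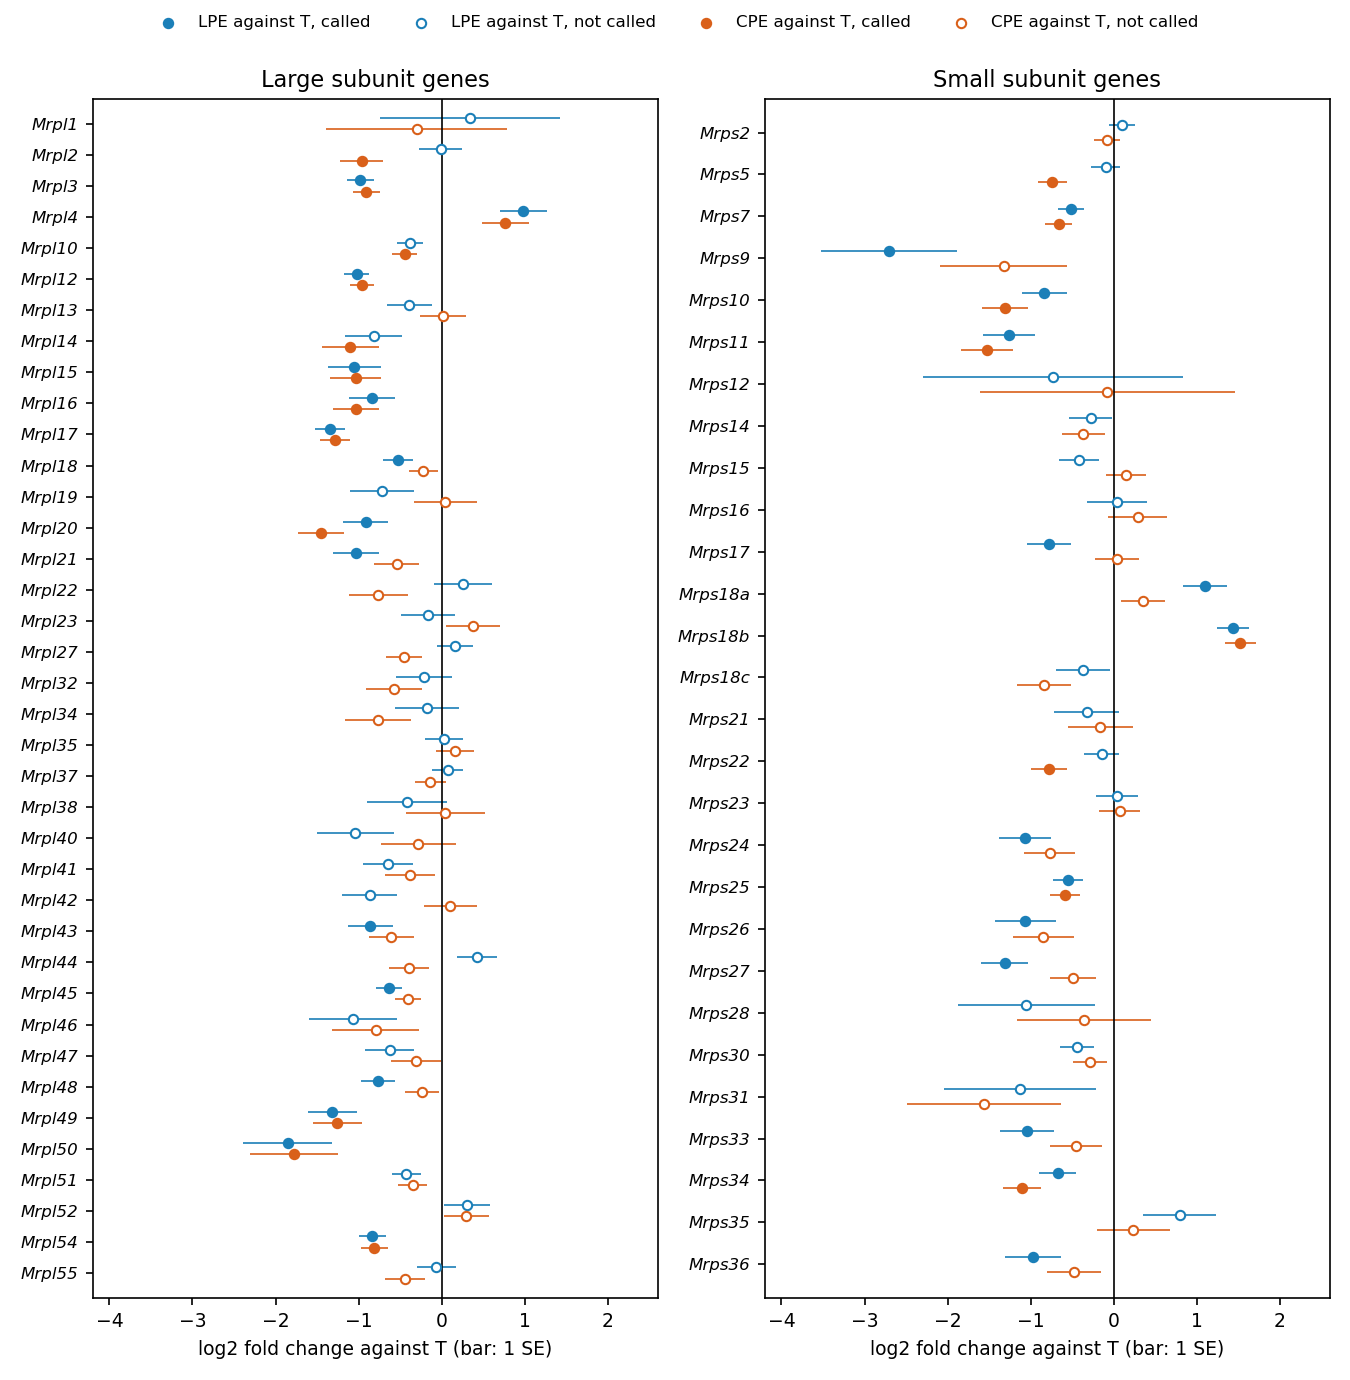
Fitted log2 fold change against T for each of the 66 genes, with large subunit genes on the left and small subunit genes on the right, LPE in blue and CPE in orange. Filled circles were called at an adjusted p under 0.05 in edgeR, open circles were not, and bars span 1 SE on each side. Most points lie left of 0, with Mrps18b, Mrps18a and Mrpl4 as the genes with a call on the right.

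In CPE against T the split was similar in direction, with the same T libraries on the other side of the comparison, so the values of these media are set side by side and not read as separate evidence. Of all genes tested, edgeR called 16.8% higher and 15.3% lower in CPE. Of the members, 2 were higher, 19 were lower and 45 did not pass, which is 3.03% and 28.8%. Their median log2 fold change was -0.45, beside -0.01 over all genes. The large subunit held 12 of the lower genes and the small subunit 7. Among large subunit proteins with a bacterial counterpart 9 of 23 were lower, and among the mitochondria-specific ones 3 of 17. In the small subunit these counts were 4 of 15 and 3 of 11.

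Among large subunit proteins with a bacterial counterpart, Mrpl17, a protein of the region around the peptide exit tunnel, was among those with the steepest falls in both media. Its level was 266, 274 and 269 CPM in T, 132, 81.7 and 104 CPM in LPE, and 127, 113 and 92.1 CPM in CPE. The T libraries lay within a narrow band and every serum-free library was below it. The level fell 2.54-fold in LPE (log2 fold change -1.35, SE 0.18, edgeR adjusted p = 4.2e-05) and 2.44-fold in CPE (-1.29, SE 0.18, adjusted p = 5e-05). Mrpl17 has 2 named pseudogenes in the RefSeq annotation, so its reads may be shared with near copies and its level is less certain than that of a gene without them.

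Mrpl3, a protein whose bacterial counterpart reaches towards the peptidyl transferase centre, moved in the same direction. It stood at 193, 195 and 193 CPM in T, 115, 97.0 and 83.0 CPM in LPE, and 114, 103 and 92.1 CPM in CPE. Here too the 3 T libraries nearly coincided, and no serum-free library came near them. The log2 fold change was -0.98 (SE 0.16) in LPE and -0.91 (SE 0.16) in CPE (edgeR adjusted p = 0.00032 and 0.00051).

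The stalk of the large subunit recruits translation factors and is built from Mrpl10, its base, and Mrpl12, its mobile part, which in human cells has also been reported to bind the mitochondrial RNA polymerase. Mrpl12 was at 411, 334 and 370.1 CPM in T, 218, 145 and 187 CPM in LPE, and 189, 189 and 195 CPM in CPE. All 6 serum-free libraries were below all T libraries, and the CPE libraries lay close together. It fell 2.03-fold in LPE and 1.95-fold in CPE (edgeR adjusted p = 0.0001 and 0.00014). Mrpl10 was at 139, 154 and 145 CPM in T, 114, 116 and 105 CPM in LPE, and 98.8, 117 and 104 CPM in CPE. Its libraries did not overlap with T either, but the difference was smaller, with log2 fold changes of -0.38 (SE 0.15) in LPE, which did not pass (edgeR adjusted p = 0.073), and -0.45 (SE 0.15) in CPE, which did (adjusted p = 0.035). That CPE call ended without any 1 of the T libraries, CPE replicate 1 or CPE replicate 3 (edgeR adjusted p 0.0698 to 0.134).

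Mrpl20, whose bacterial counterpart is needed early in assembly of the large subunit, was at 129.9, 96.7 and 127 CPM in T, 90.5, 38.9 and 58.3 CPM in LPE, and 38.0, 52.7 and 38.0 CPM in CPE. The serum-free libraries were all below T, and those of LPE were the more scattered. The log2 fold change was -0.92 (SE 0.28) in LPE and -1.46 (SE 0.28) in CPE (edgeR adjusted p = 0.019 and 0.00091). The LPE call ended without T replicate 1, T replicate 3, LPE replicate 2 or LPE replicate 3 (edgeR adjusted p 0.0572 to 0.0814). Mrpl14, Mrpl15 and Mrpl16, also proteins with bacterial counterparts, had CPE log2 fold changes of -1.10, -1.04 and -1.03 and were called lower there. In LPE, Mrpl15 and Mrpl16 passed as well (-1.05 and -0.84), whereas Mrpl14 had -0.82 and did not (edgeR adjusted p = 0.086). Mrpl18 and Mrpl21 were called lower in LPE, at -0.53 and -1.03, and in CPE they had -0.22 and -0.54 and did not pass (adjusted p = 0.39 and 0.14). Each call of Mrpl14, Mrpl15, Mrpl16, Mrpl18 and Mrpl21 ended in a fit without some single library.

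Of the mitochondria-specific large subunit proteins, Mrpl50 and Mrpl49 had the largest falls in LPE. Mrpl50 was at 94.9, 81.1 and 95.3 CPM in T, 35.8, 2.80 and 36.5 CPM in LPE, and 20.6, 32.9 and 25.1 CPM in CPE. A single LPE library was far below its partners, and all serum-free libraries were below T. The log2 fold change was -1.85 (SE 0.53) in LPE and -1.78 (SE 0.53) in CPE (edgeR adjusted p = 0.016 and 0.017), with an SE above the members' median of 0.28. The CPE call ended without T replicate 1, CPE replicate 1 or CPE replicate 3 (edgeR adjusted p 0.0508 to 0.0712). Mrpl49 was at 81.8, 63.1 and 81.4 CPM in T, 39.6, 30.5 and 20.8 CPM in LPE, and 22.4, 38.6 and 33.5 CPM in CPE, and fell 2.49-fold in LPE and 2.39-fold in CPE (edgeR adjusted p = 0.0036 and 0.0043). Its groups did not overlap with T.

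Mrpl54, also mitochondria-specific, was at 159.9, 155 and 170.2 CPM in T, 84.1, 88.0 and 99.7 CPM in LPE, and 90.5, 83.1 and 103 CPM in CPE. It fell 1.78-fold and 1.75-fold (edgeR adjusted p = 0.0011 in LPE and 0.0012 in CPE), with no overlap of libraries. Mrpl45, which in mammals helps hold the ribosome at the inner membrane beside the tunnel exit, was at 267, 214 and 232 CPM in T, 134, 169 and 156 CPM in LPE, and 209, 161 and 168 CPM in CPE. All LPE and CPE libraries were below those of T, but the fall passed in LPE (-0.63, SE 0.15, edgeR adjusted p = 0.0052) and not in CPE (-0.41, SE 0.15, adjusted p = 0.052). Mrpl43 and Mrpl48 were called lower in LPE, at -0.86 and -0.77, and in CPE had -0.61 and -0.24 without passing (edgeR adjusted p = 0.099 and 0.42). Both LPE calls ended in a fit without some single library.

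In the small subunit, Mrps11, a platform protein with a bacterial counterpart, fell in both media. Its level was 91.7, 81.7 and 83.7 CPM in T, 46.0, 22.7 and 38.5 CPM in LPE, and 20.9, 42.2 and 25.8 CPM in CPE. All 6 serum-free libraries were below every T library. The fold was 2.40 in LPE and 2.87 in CPE (edgeR adjusted p = 0.006 and 0.0015). The RefSeq annotation names 1 pseudogene of Mrps11 and 1 of Mrps10.

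Mrps10, another protein with a bacterial counterpart, was at 60.6, 56.2 and 55.3 CPM in T, 28.1, 35.7 and 32.4 CPM in LPE, and 20.6, 20.4 and 28.3 CPM in CPE. The log2 fold change was -0.84 (SE 0.27) in LPE and -1.31 (SE 0.27) in CPE (edgeR adjusted p = 0.029 and 0.0017). Its serum-free libraries all lay below T. The LPE call of Mrps10 ended without any 1 of the T libraries or LPE replicate 1 (edgeR adjusted p 0.0731 to 0.115). Mrps7, whose bacterial counterpart starts the folding of the subunit's head, was at 165, 142 and 164 CPM in T, 103, 114 and 113 CPM in LPE, and 91.1, 93.6 and 113 CPM in CPE, with log2 fold changes of -0.51 (SE 0.16) and -0.66 (SE 0.16) at edgeR adjusted p of 0.023 and 0.0044. Its groups did not overlap with T. The LPE call of Mrps7 ended without T replicate 1, T replicate 3 or LPE replicate 1 (edgeR adjusted p 0.0637 to 0.107).

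Mrps34, a mitochondria-specific protein needed for a stable small subunit in mouse, was at 126, 111 and 149 CPM in T, 71.9, 100.1 and 69.6 CPM in LPE, and 57.8, 45.9 and 75.7 CPM in CPE. No serum-free library reached T, and the log2 fold change was -0.67 (SE 0.22) in LPE and -1.11 (SE 0.23) in CPE (edgeR adjusted p = 0.033 and 0.0015). The LPE call ended without T replicate 1, T replicate 3, LPE replicate 1 or LPE replicate 3 (edgeR adjusted p 0.082 to 0.168). Mrps25 was also called lower in both media, at -0.55 and -0.59. Mrps24, Mrps26, Mrps33 and Mrps36 were called lower in LPE, at -1.07, -1.06, -1.05 and -0.97, and their CPE values of -0.77, -0.85, -0.45 and -0.48 did not pass. Each of these LPE calls ended in a fit without some single library.

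Mrps9 had the largest fitted fall of any member in LPE, from few counts. Its level was 32.7, 25.5 and 23.7 CPM in T, 7.67, 0 and 4.81 CPM in LPE, and 14.4, 6.36 and 11.9 CPM in CPE. LPE replicate 2 had no count, and all LPE and CPE libraries were below T. The log2 fold change was -2.70 (SE 0.82) in LPE (edgeR adjusted p = 0.02) and -1.32 (SE 0.76) in CPE, which did not pass (adjusted p = 0.21). The LPE call ended without any 1 of the T libraries (edgeR adjusted p 0.0501 to 0.083).

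**Figure D3:**
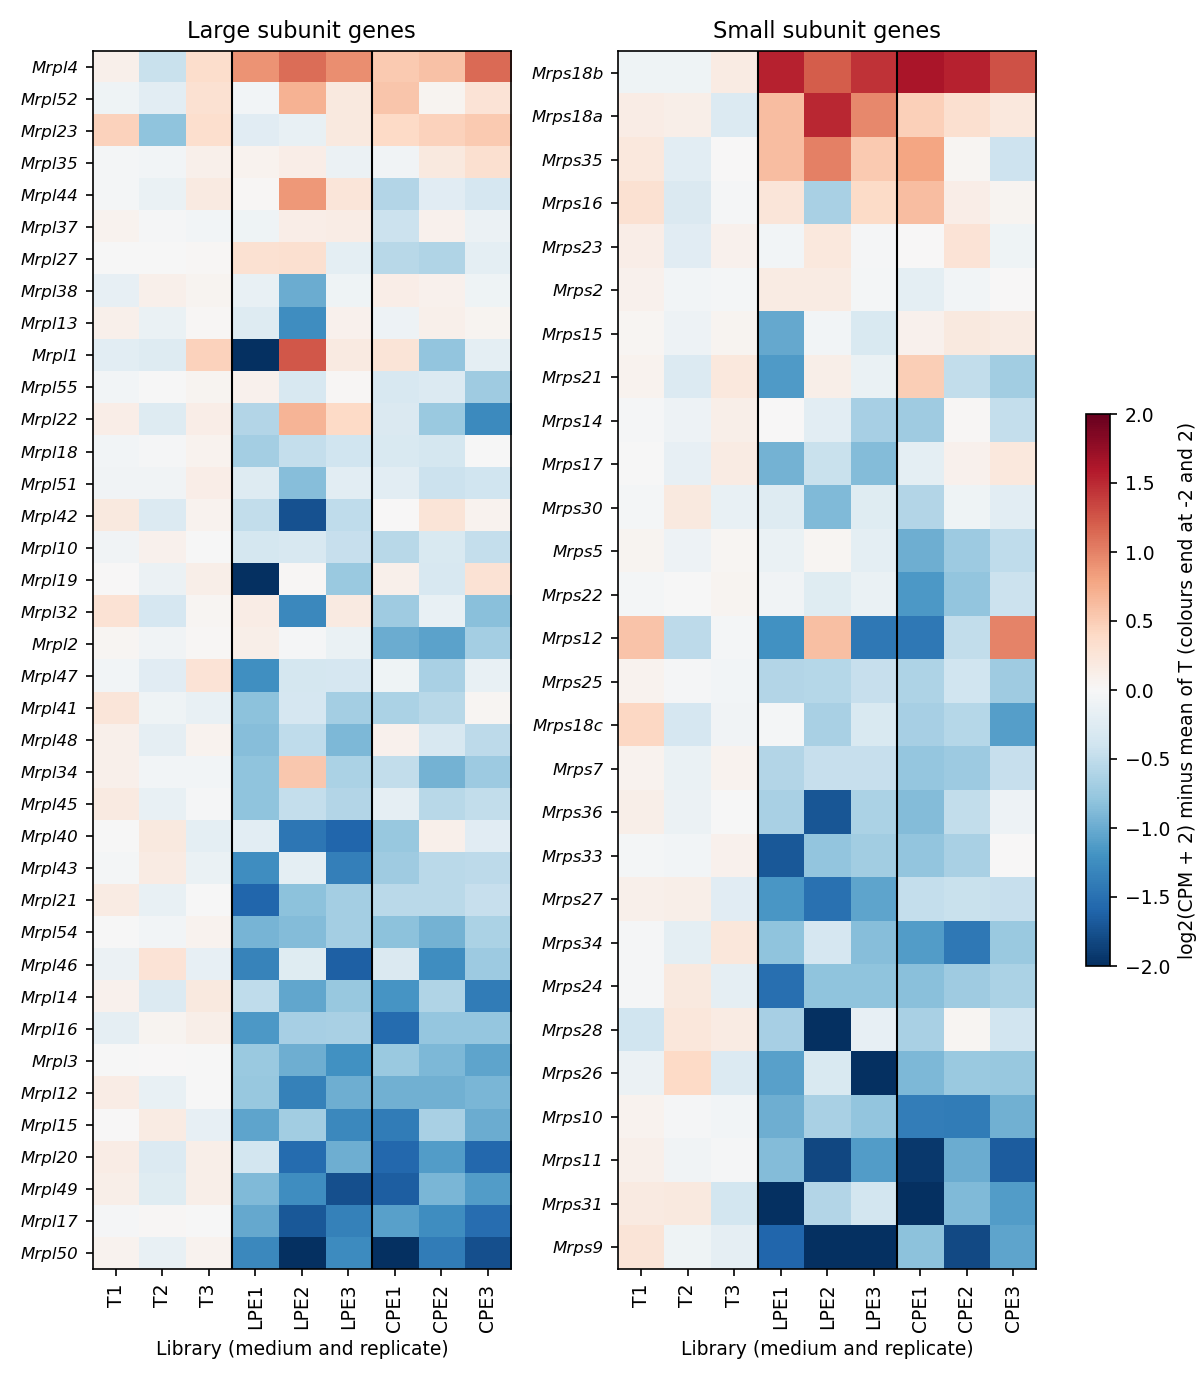
Level of each of the 66 genes in each of the 9 libraries, drawn as log2(CPM + 2) minus the gene's mean over the T libraries, with colours ending at -2 and 2 and genes sorted by their mean difference. LPE and CPE columns are blue (lower than T) for most genes and red for Mrps18b, Mrps18a and Mrpl4, and single LPE libraries stand out for individual genes.

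The main exception was Mrps18b, which rose in both serum-free media. It is 1 of 3 vertebrate paralogs of a bacterial small subunit protein. In the mammalian particle Mrps18b and Mrps18c sit at different places in the small subunit and Mrps18a in the large one. The level of Mrps18b was 41.5, 41.1 and 49.8 CPM in T, 132, 104 and 123 CPM in LPE, and 140.1, 132 and 109.5 CPM in CPE. Each serum-free library was above the highest T library, and LPE and CPE overlapped with each other. The rise was 2.71-fold in LPE (log2 fold change 1.44, SE 0.19, edgeR adjusted p = 4.2e-05) and 2.87-fold in CPE (1.52, SE 0.19, adjusted p = 2e-05). The RefSeq annotation names 1 pseudogene of Mrps18b. Ppp1r10, a protein phosphatase regulatory subunit gene that lies next to Mrps18b in the RefSeq assembly, was at 149 ± 14.5 CPM in T, 264 ± 60.1 CPM in LPE and 132 ± 11.1 CPM in CPE (SD, n = 3), and was called higher in LPE (log2 fold change 0.83, edgeR adjusted p = 0.0015) but not in CPE (-0.18, adjusted p = 0.47).

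The calls of the other paralogs differed. Mrps18a was at 44.2, 43.4 and 32.5 CPM in T, 62.0, 117 and 78.8 CPM in LPE, and 56.3, 50.2 and 46.1 CPM in CPE. All LPE libraries and all CPE libraries exceeded those of T, but LPE was the more variable and only its rise passed (1.10, SE 0.26, edgeR adjusted p = 0.005, against 0.35, SE 0.26, adjusted p = 0.35, in CPE). The difference between CPE and LPE was -0.75 (SE 0.26) on the log2 scale and missed the threshold (adjusted p = 0.053). Mrps18c was at 53.5, 31.3 and 37.7 CPM in T, 38.7, 24.6 and 31.7 CPM in LPE, and 24.5, 26.1 and 17.4 CPM in CPE. Its T and LPE libraries overlapped, and neither value passed, with -0.37 (SE 0.32) in LPE and -0.84 (SE 0.33) in CPE (edgeR adjusted p = 0.44 and 0.06).

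Mrpl4, a large subunit protein whose bacterial counterpart lines the exit tunnel, was at 32.2, 21.4 and 39.1 CPM in T, 57.5, 67.4 and 59.0 CPM in LPE, and 43.9, 46.1 and 68.3 CPM in CPE. All serum-free libraries were above T. The rise was 1.98-fold in LPE (edgeR adjusted p = 0.015) and 1.70-fold in CPE, where the adjusted p of 0.0499 was just inside the threshold and 8 of 14 other settings ended the call. Without a filter on low counts, with counts of either strand, with the replicate number as a block, or after thinning, 1 member was called higher in CPE, Mrps18b. The same held without T replicate 1, T replicate 2, CPE replicate 2 or CPE replicate 3. The LPE call ended without T replicate 1 or T replicate 2 (edgeR adjusted p 0.0522 and 0.0895).

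The promoters of the 3 paralogs are shown because these near relatives had different values, together with those of Mrpl4, which rose, and Mrpl17, which fell in both media. Each runs from 150 bases before the annotated start through the first 20 bases of the transcript, 5′ to 3′ on the gene's strand, from RefSeq's GRCr8 assembly, which is not the build of the counts. The positions are chr20:2842856-2843025 (plus strand), chr9:22367361-22367530 (minus), chr14:9122887-9123056 (minus), chr8:27815621-27815790 (plus) and chr1:169575680-169575849 (minus). Capitals mark matches to 3 short motifs searched on both strands: GCGCATGCG, the core of the site of the nuclear respiratory factor Nrf1, CCGGAAG, a core bound by Ets factors such as Gabpa, and AAGATGGCG, the core of the Yy1 site.
Mrps18b: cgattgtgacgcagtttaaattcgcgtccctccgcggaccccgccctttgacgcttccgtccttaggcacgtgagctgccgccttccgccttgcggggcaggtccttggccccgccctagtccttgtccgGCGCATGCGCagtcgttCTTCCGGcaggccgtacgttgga
Mrps18a: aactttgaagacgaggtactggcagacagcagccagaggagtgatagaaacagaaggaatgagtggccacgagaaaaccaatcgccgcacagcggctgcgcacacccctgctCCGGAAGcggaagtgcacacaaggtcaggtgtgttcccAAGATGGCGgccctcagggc
Mrps18c: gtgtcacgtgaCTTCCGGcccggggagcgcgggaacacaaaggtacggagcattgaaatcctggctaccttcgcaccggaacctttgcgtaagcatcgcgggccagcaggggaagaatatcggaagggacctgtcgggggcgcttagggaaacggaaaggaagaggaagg
Mrpl4: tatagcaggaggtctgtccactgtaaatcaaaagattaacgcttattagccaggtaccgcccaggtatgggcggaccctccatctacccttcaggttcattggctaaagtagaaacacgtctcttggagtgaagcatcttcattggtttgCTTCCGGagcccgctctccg
Mrpl17: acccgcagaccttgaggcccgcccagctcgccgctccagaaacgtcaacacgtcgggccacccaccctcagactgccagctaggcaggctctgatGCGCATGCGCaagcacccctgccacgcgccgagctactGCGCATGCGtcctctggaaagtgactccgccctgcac
In Mrps18b the capitals hold the Nrf1 letters on both strands, overlapping, and then the Ets letters on the reverse strand. Mrps18a holds the Ets and the Yy1 letters, Mrps18c and Mrpl4 the Ets letters on the reverse strand, and Mrpl17 the Nrf1 letters at a pair of places. Promoter windows of 300 bases (250 before to 50 after the start) were available for 52 of the 66 members. The Nrf1 letters were in 5 of these 52 (9.62%), beside 2.03% of 19005 promoters of protein-coding genes. The Ets letters were in 15 (28.9%), beside 11.2% of all promoters, and the Yy1 letters in 8 (15.4%), beside 2.29%. Of the promoters of members called lower in LPE, 6 of 20 held the Ets letters, as did 6 of 29 of those not called and 3 of 3 of those called higher. By the calls in CPE, 3 of 15 promoters of lower members held them, 10 of 35 of those not called and 2 of 2 of those called higher. Those 2 are also among the 3 higher in LPE. The Nrf1 letters were in 1 of 20 lower, 3 of 29 not called and 1 of 3 higher in LPE. In CPE these were 1 of 15, 3 of 35 and 1 of 2. For the Yy1 letters the counts were 3 of 20, 4 of 29 and 1 of 3 in LPE, and 2 of 15, 6 of 35 and 0 of 2 in CPE. A match of letters is a description of the window and not a site in use.

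**Figure D4:**
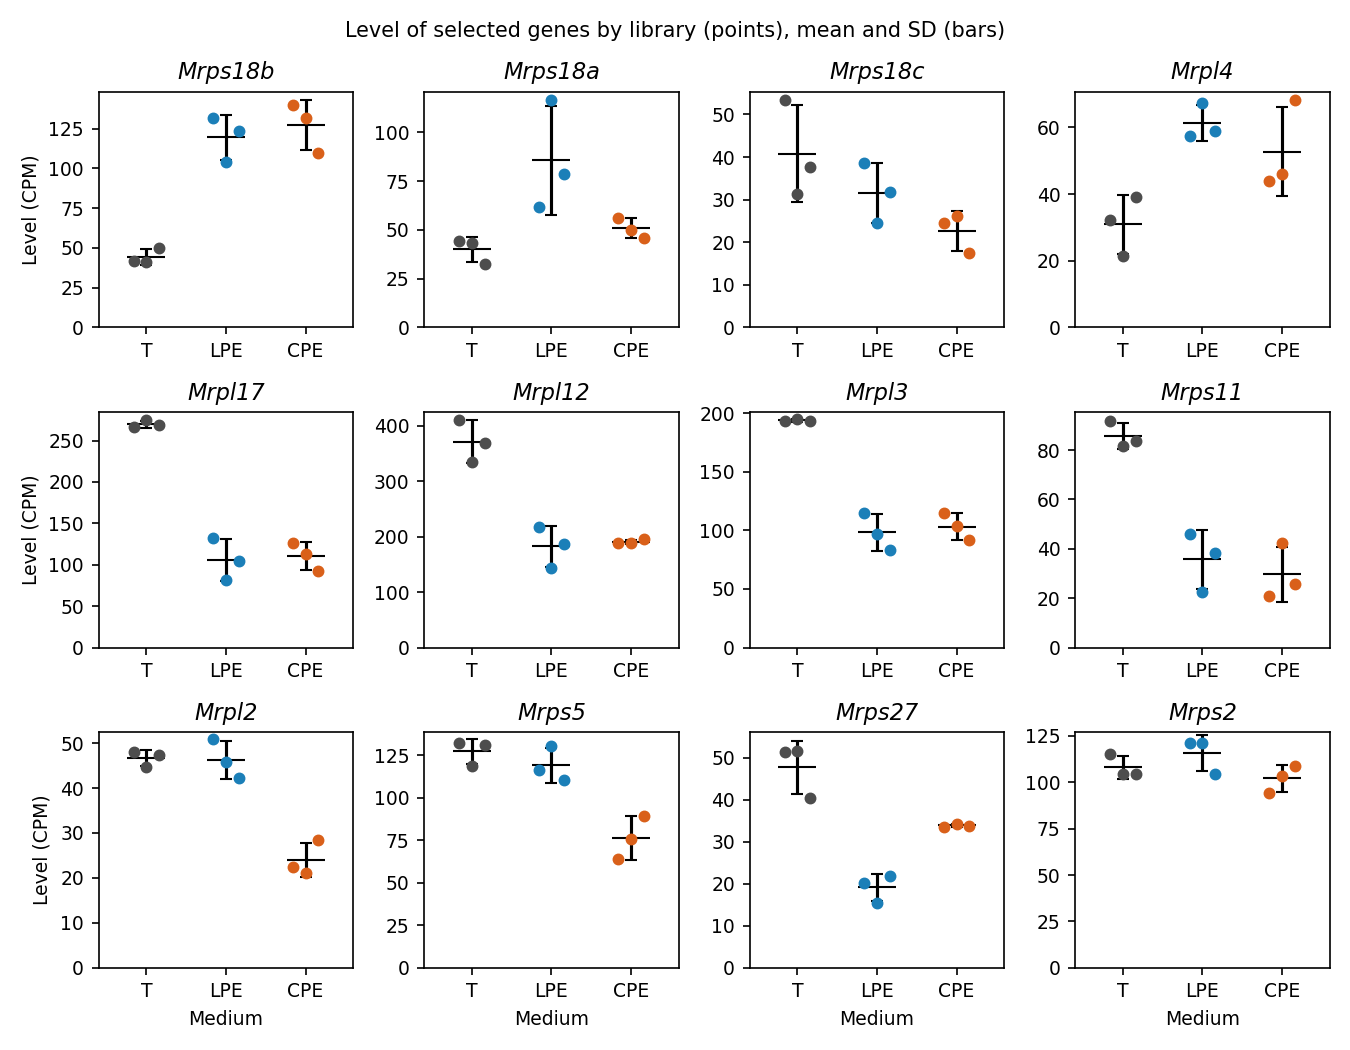
Level in CPM of 12 genes in each library (points) with the mean and SD of each medium (bars), each axis starting at 0. The upper row holds the Mrps18 paralogs and Mrpl4, the middle row genes that fell in both serum-free media, and the lower row genes that were lower in 1 of these media or in neither (Mrps2).

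Between the 2 serum-free media few members differed. Of all genes tested, edgeR called 9.56% higher and 8.23% lower in CPE than in LPE. Of the 66 members, 1 was higher and 3 were lower, and 62 did not pass (1.52% and 4.55%). Their median log2 fold change was 0.06, beside 0.01 over all genes. With a median SE of 0.27 on the log2 scale, a gene that did not pass is not shown to be alike in the 2 media. When LPE and CPE were fitted without the T libraries, none of the 4 passed, and edgeR called 0 members in either direction (2 higher and 7 lower at an unadjusted p under 0.05). That fit has fewer libraries to estimate the spread and leaves out T, whose libraries varied least. Fits of the same size called 28 members lower for CPE and T alone, beside 19 with all libraries, and 24 for LPE and T alone, beside 26. Why the calls between CPE and LPE ended was not tested. Limma's voom fit with a weight for each medium called 0 higher and 1 lower, and DESeq2 called 2 higher and 5 lower. Leaving out LPE replicate 2 gave 5 higher and 4 lower, leaving out LPE replicate 1 gave 2 higher and 5 lower, and leaving out CPE replicate 2 or CPE replicate 3 gave 0 higher.

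Of these, Mrpl2, whose bacterial counterpart lies close to the peptidyl transferase centre, was at 48.0, 44.6 and 47.4 CPM in T, 50.8, 45.7 and 42.3 CPM in LPE, and 22.4, 21.1 and 28.3 CPM in CPE. LPE overlapped with T, and all CPE libraries were below both. The fall was -0.95 (SE 0.26) against LPE and -0.96 (SE 0.26) against T (edgeR adjusted p = 0.018 and 0.011). The call against LPE ended without CPE replicate 2 (edgeR adjusted p = 0.0636) and that against T without T replicate 3 (0.0521). Mrps5, whose bacterial counterpart lies where messenger RNA enters the small subunit, also overlapped between T and LPE and was lowest in CPE, with 132, 119 and 131 CPM in T, 116, 131 and 111 CPM in LPE, and 63.7, 75.6 and 89.2 CPM in CPE. Its log2 fold change was -0.65 (SE 0.17) against LPE and -0.74 (SE 0.18) against T (edgeR adjusted p = 0.016 and 0.0042). Without CPE replicate 1 the difference from LPE was -0.53 and did not pass (edgeR adjusted p = 0.0565).

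Mrpl44, a large subunit protein of the ribonuclease III family, was at 66.6, 62.5 and 78.1 CPM in T, 70.0, 127 and 82.1 CPM in LPE, and 45.1, 58.6 and 54.1 CPM in CPE. LPE replicate 2 stood above the rest, and CPE against LPE was -0.82 (SE 0.24), at an edgeR adjusted p of 0.025, while neither medium passed against T. Without LPE replicate 2 the difference was -0.53 and did not pass (edgeR adjusted p = 0.0997). It also missed the threshold without CPE replicate 1 (0.0848) or CPE replicate 3 (0.0615). Mrps17, a small subunit protein with a bacterial counterpart, was at 48.6, 43.4 and 54.9 CPM in T, 24.3, 35.4 and 26.0 CPM in LPE, and 42.2, 52.0 and 57.0 CPM in CPE. LPE was below the other media, with -0.78 (SE 0.27) against T (edgeR adjusted p = 0.039) and CPE 0.82 (SE 0.26) above LPE (adjusted p = 0.043). The call against T ended without any 1 of the T libraries, LPE replicate 1 or LPE replicate 3 (edgeR adjusted p 0.0683 to 0.171). The call between CPE and LPE ended without LPE replicate 1, LPE replicate 3, CPE replicate 2 or CPE replicate 3 (0.0886 to 0.126).

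Mrps27, a mitochondria-specific protein with pentatricopeptide repeats, missed the threshold between the serum-free media. Its level was 51.3, 51.5 and 40.5 CPM in T, 20.1, 15.5 and 21.8 CPM in LPE, and 33.6, 34.3 and 33.8 CPM in CPE. The 3 media did not overlap, with LPE lowest and CPE between. The fall against T was -1.31 (SE 0.29) in LPE (edgeR adjusted p = 0.0027) and -0.49 (SE 0.28) in CPE (adjusted p = 0.2), and CPE against LPE was 0.82 (SE 0.28) at an adjusted p of 0.057. Mrps22, a mitochondria-specific small subunit protein, was at 86.8, 88.0 and 92.1 CPM in T, 85.0, 75.2 and 80.8 CPM in LPE, and 39.2, 50.9 and 65.7 CPM in CPE, and fell in CPE against T (-0.78, SE 0.21, edgeR adjusted p = 0.011). Without T replicate 3 that fall did not pass (edgeR adjusted p = 0.0557).

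Members without a call included core proteins of both subunits. Mrps2, whose bacterial counterpart lies at the junction of head and body, was at 115, 104 and 105 CPM in T, 121, 121 and 104 CPM in LPE, and 94.4, 103 and 109 CPM in CPE, with overlapping libraries. Its log2 fold change was 0.10 (SE 0.16) in LPE and -0.08 (SE 0.16) in CPE. Mrps16, also with a bacterial counterpart, was at 33.3, 21.4 and 26.0 CPM in T, 31.6, 16.2 and 35.3 CPM in LPE, and 41.6, 29.3 and 27.7 CPM in CPE. Its media overlapped as well. Mrps30 was at 132, 157 and 122 CPM in T, 114, 72.7 and 115 CPM in LPE, and 90.2, 129 and 117 CPM in CPE. Mrpl23, a protein at the tunnel exit, was at 46.9, 18.5 and 43.2 CPM in T, 28.4, 30.1 and 38.8 CPM in LPE, and 44.8, 47.2 and 49.3 CPM in CPE, and 1 low T library set most of its spread. For Mrps12, a decoding centre protein near the count minimum, the SE of 1.57 in LPE leaves the direction undetermined at this depth. Over the 37 members that did not pass in LPE the log2 fold change ran from -1.13 to 0.79, and over the 45 in CPE from -1.56 to 0.37.

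Variation between libraries of a medium was wider in the serum-free media. The median coefficient of variation of the members was 11.4% in T, 23.9% in LPE and 17.9% in CPE. Counting alone would give 9.41%, 8.35% and 7.52% if each read came from a separate molecule. PCR copies were not identified, so the counting error may be larger than these values. Over all genes tested the values were 13.6%, 26.9% and 22.3%, so the order of the media was the same. LPE replicate 2 was the highest of its medium for 29 members and the lowest for 21, and T replicate 2 was the lowest of its medium for 42. Leaving out T replicate 1 took the count of members called lower in LPE from 26 to 9, and leaving out T replicate 2 or T replicate 3 took it to 14. Leaving out LPE replicate 1 took it to 17. Of the members, 9 of the 26 lower in LPE (Mrpl3, Mrpl12, Mrpl17, Mrpl45, Mrpl49, Mrpl50, Mrpl54, Mrps11 and Mrps27) and 11 of the 19 lower in CPE (Mrpl3, Mrpl12, Mrpl17, Mrpl20, Mrpl49, Mrpl54, Mrps5, Mrps7, Mrps10, Mrps11 and Mrps34) were called under all 14 other settings, as was Mrps18b in both media and Mrps18a in LPE.

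Reads were assigned by strand, and 64 of the 66 members had under 5% of their reads on the other strand. Mrpl47 had 39.0% (753 counts beside 1178 on its own strand) and overlaps Ndufb5 and Actl6a in the RefSeq assembly, and Mrpl55 had 6.0% and overlaps Guk1. Neither was called in any comparison. For Mrps7 876 of 3014 counts were lost when strand was ignored. Named pseudogenes exist for 22 members, and 9 of these 22 (40.9%) were called lower in LPE, beside 17 of the other 44 (38.6%). In CPE the counts were 7 of 22 (31.8%) and 12 of 44 (27.3%).

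Genes that work with the mitochondrial ribosome did not all follow its proteins. Of 7 further subunits that carry other symbols, 3 were lower and 4 did not pass in LPE, with a median log2 fold change of -0.90, and 2 were lower and 5 did not pass in CPE, with a median of -0.61. Those called lower are 42.9% and 28.6%, beside 14.7% and 15.3% of all genes, whose medians were -0.03 and -0.01. Gadd45gip1, a large subunit protein, was at 109, 103 and 114 CPM in T, 30.4, 32.0 and 54.8 CPM in LPE, and 32.4, 47.7 and 66.7 CPM in CPE, so that no serum-free library reached T. Its log2 fold change was -1.47 (SE 0.29) in LPE and -1.15 (SE 0.28) in CPE (edgeR adjusted p = 0.0012 and 0.0055). Mrp63, a large subunit protein, had -0.90 (SE 0.32) and -1.14 (SE 0.32) at edgeR adjusted p of 0.045 and 0.013, and Chchd1, a small subunit protein, passed in LPE only, at -1.06 (SE 0.27) against -0.33 (SE 0.26) in CPE (edgeR adjusted p = 0.0071 and 0.37).

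Of 14 mitochondrial translation factors and regulators, 1 was higher and 13 did not pass in LPE, and 2 were higher and 1 lower in CPE. The higher genes are 7.14% and 14.3% of the list, beside 15.0% and 16.8% of all genes, so both shares were under the background. Guf1, a GTPase that acts on elongating ribosomes, had a log2 fold change of 0.84 (SE 0.22) in LPE, and Tsfm, the exchange factor for the elongation factor Tufm, had 1.03 (SE 0.31) in CPE (edgeR adjusted p = 0.0087 and 0.019). Tufm itself rose by 0.45 on the log2 scale in CPE and Slirp, an RNA-binding protein, had -0.76 (edgeR adjusted p = 0.048 and 0.029). Against LPE, CPE had Tsfm at 1.04 and Mrrf, the recycling factor, at -0.89 (edgeR adjusted p = 0.027 and 0.039). Of 17 genes for mitochondrial aminoacyl-tRNA synthetases, which charge the tRNAs, and for an amidotransferase, 1 passed in each comparison (5.88%, under the background in each): Vars2 rose in LPE (1.20, edgeR adjusted p = 0.037), Pars2 fell in CPE against T (-1.76, adjusted p = 0.0039) and Aars2 was lower in CPE than in LPE (-0.85, adjusted p = 0.04).

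Of 21 genes for assembly of the mitochondrial ribosome and its RNA, 2 were higher and 2 lower in LPE, and 3 were higher and 2 lower in CPE. These are 9.52% in each direction in LPE, and 14.3% higher and 9.52% lower in CPE, all under the shares of all genes called (15.0% and 14.7%, and 16.8% and 15.3%). The median log2 fold change of the list was -0.19 in LPE, beside -0.59 for the members and -0.03 over all genes. In CPE it was -0.53, beside -0.45 for the members and -0.01 over all genes, so few calls do not mean an unchanged list. Eral1, a chaperone of the small subunit's RNA, had a log2 fold change of 0.63 (SE 0.23) in LPE and 0.63 (SE 0.23) in CPE (edgeR adjusted p = 0.046 and 0.043), and Grsf1, an RNA granule protein, had 0.43 (SE 0.15) and 0.64 (SE 0.15) at edgeR adjusted p of 0.037 and 0.0033. Afg3l2, an inner membrane protease that processes Mrpl32 in mouse and yeast, was higher in CPE (1.24, edgeR adjusted p = 0.015). Mpv17l2, a ribosome assembly factor, was lower in LPE (-1.31, SE 0.47, edgeR adjusted p = 0.048), just inside the threshold. Its level was 47.5, 45.7 and 47.4 CPM in T and 4.16, 28.0 and 24.7 CPM in LPE, with 1 library far below its partners. Trub2, a pseudouridine synthase, was lower in both media (-0.85 and -0.84, edgeR adjusted p = 0.039 and 0.038).

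Of 13 genes for mitochondrial DNA maintenance and transcription and for the nuclear regulators of such genes, 4 were lower and 9 did not pass in LPE, and 3 were lower and 10 did not pass in CPE. The lower genes are 30.8% and 23.1% of this short list, beside 14.7% and 15.3% of all genes. Esrra, a nuclear receptor that drives respiratory genes, had a log2 fold change of -1.25 (SE 0.35) in LPE and -1.69 (SE 0.36) in CPE (edgeR adjusted p = 0.014 and 0.0019). Gabpa, the Ets factor named above, had -0.61 (SE 0.15) and -0.50 (SE 0.15) at edgeR adjusted p of 0.006 and 0.019. Nrf1 had -1.11 (SE 0.40) in LPE (edgeR adjusted p = 0.047) and -0.30 (SE 0.39) in CPE (adjusted p = 0.6). Its level was 60.0, 62.5 and 45.1 CPM in T and 42.8, 9.32 and 25.6 CPM in LPE, so the LPE libraries were scattered. Myc was at 27.3, 34.7 and 29.3 CPM in T, 41.6, 60.3 and 56.4 CPM in LPE, and 11.2, 14.3 and 10.6 CPM in CPE. It was lower in CPE than in T (-1.33, SE 0.31, edgeR adjusted p = 0.0039) and than in LPE (-2.12, SE 0.31, adjusted p = 0.00019). Of 30 symbols of mitochondrial genome transcripts, 0 were among the 17315 genes counted, so these transcripts were not analysed here.

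**Figure D5:**
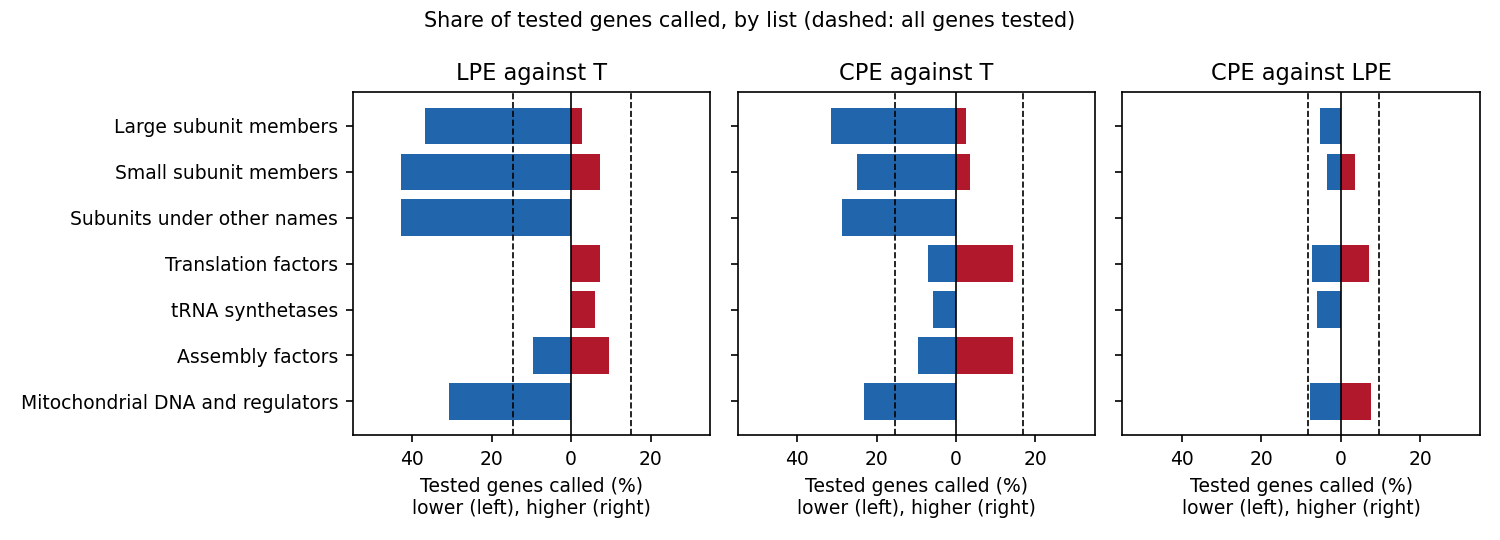
Share of tested genes called lower (blue, to the left) and higher (red, to the right) for the mitochondrial ribosomal protein genes and the related gene lists, in each comparison, with dashed lines at the share of all genes tested. In LPE and CPE against T the lower bars of both subunits pass the dashed line, while the higher bars stay inside it.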

How the data were processed

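RNA-seq of rat pXEN cells gave 9 libraries, 3 in each of 3 media. Per the labels' protocols, total RNA was freed of ribosomal RNA and made into directional libraries with random primers and PCR. The submitters' processing notes name CASAVA 1.8.2, Trimmomatic 0.33, STAR 2.5.1, DESeq2 and the build rn6. The sources used here do not name the annotation. The deposited tables hold raw read counts per gene and strand, made by the authors, and the column with the gene's strand was used, without its 4 summary lines.

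Differences were tested in edgeR 4.0.16 (R 4.3.3) with a quasi-likelihood F test over all 9 libraries, TMM normalization and filterByExpr with a minimum count of 10, which kept 9130 genes and all 66 members. P-values were adjusted over the 9130 genes by the Benjamini-Hochberg method and a gene was called at an adjusted p under 0.05. The SE is the log2 fold change divided by the square root of F. CPM use TMM-adjusted library sizes. PCR copies were not identified, so counts are reads and not molecules. Alternatives used DESeq2 1.42.0 and limma 3.58.1. The edgeR fit was also run on simulated counts with known changes. In LPE against T, CPE against T and CPE against LPE it recovered 52%, 42% and 44% of 2-fold changes. Of 4-fold changes it recovered 74%, 78% and 70%. False calls were 4 of 130, 2 of 122 and 6 of 120. Whether these values hold for the 9 libraries, whose spread was wider in LPE and CPE than in T, was not tested. A gene that did not pass may still have changed. Same-numbered libraries did not deviate together, and libraries of a medium differed by 1.94 to 17.6 times the sampling variance, so none was counted as a duplicate.

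Genes named were the 6 largest rises and 6 largest falls among called members of each comparison, up to 6 members called in both media against T without overlap, a set picked by role, and up to 2 rises and 2 falls of each other list. Other called members were added by name. The members and lists were chosen with earlier results of these data known. Names and promoters came from RefSeq tables on GRCr8, where 65 members matched by symbol and 1 by synonym.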

Additional observations from a re-analysis of the deposited data

How the results depend on the processing

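The counts of members called in LPE against T were 3 higher and 22 to 28 lower under all 8 alternatives that kept every library of the media compared, and those lower in CPE against T were 19 to 28. Thinning all libraries to 1 depth moved the median log2 fold change in LPE to -0.49 and turned that of CPE against LPE from 0.06 to -0.0032, and the cause was not tested. In CPE against T 1 member was higher without a low-count filter, with reads on either strand, with the replicate block and after thinning. In CPE against LPE, 2 were higher with RLE size factors and 2 with DESeq2, 0 with limma's voom and 0 with these media alone, and 5 were lower with DESeq2, 5 without a filter, 1 with voom and 0 with these media alone. Thinning and voom were chosen after seeing the data. Leaving out 1 library at a time gave 2 to 3 higher and 9 to 25 lower members in LPE (median -0.64 to -0.52), 1 to 2 higher and 13 to 19 lower in CPE (median -0.53 to -0.45), and 0 to 5 higher and 2 to 5 lower in CPE against LPE (median 0.00082 to 0.083). With the replicate number as a block, 3 members were higher and 23 lower in LPE, 1 and 19 in CPE, and 1 and 3 in CPE against LPE, with medians of -0.59, -0.47 and 0.07. The numbers do not pair the libraries, since deviations of same-numbered libraries correlated between -0.0266 and 0.0118. For the named members, 680 values kept their status, called or not called, in the alternatives with all libraries of the media compared. In these 11 gained and 23 lost a call. When libraries were left out, 487 kept their status, 5 gained and 48 lost a call, with 0 reversed. Values not called in either fit are among those kept, so these counts are not the share of calls that held. Voom shifted the median of all genes in LPE against T by -0.12, to -0.15, beside a member median of -0.64. At a median member count of 99.5 to 208 per library, counting error limits the members with few counts, such as Mrps12, Mrpl1 and Mrps9.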
